A study of Rattus norvegicus with 62 samples.

Results

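A set of 47 genes of the extracellular matrix was followed in the heart of rats given rosiglitazone, namely collagens, the proteins that lie in and between their fibres, the enzymes that process and crosslink them, the proteases and inhibitors that turn them over, and the TGF-beta ligands. The list of 47 genes was set by name, with earlier results of these data known, so its shares beside those of all genes are descriptive. A gene counted as measured where at least 1 probe set of the array (a group of short probes for 1 transcript) was annotated to that gene alone. All 47 had such a probe set, 77 in all, of 14217 genes with 1 on the array, and 46 passed the filter on low signals, as did 10557 of all genes. Mmp9, a gelatinase, did not pass: its log2 signal averaged 2.38, with group means from 1.16 to 2.91, against a filter level of 5.03, so it was not tested. Each gene is given by the probe set with the highest mean signal. By role the 47 genes comprised 11 interstitial collagens, 11 basement membrane genes, 8 glycoproteins and proteoglycans of the fibres, 6 genes for crosslinking and collagen processing, 8 proteases or inhibitors, and 3 TGF-beta ligands.

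The samples were cardiac muscle of male Wistar rats that received rosiglitazone by mouth once a day for 14 days at 0, 10 or 80 mg/kg. Rosiglitazone is a synthetic agonist of PPAR-gamma, a nuclear receptor best known from fat cells. Tissue was taken 6, 24, 168 or 336 h after the last dose, which gave 12 groups and 62 arrays. The vehicle groups (0 mg/kg) held 4, 6, 5 and 5 arrays at these times in that order, the 10 mg/kg groups 5, 5, 5 and 6, and the 80 mg/kg groups 5, 5, 6 and 5. All groups were dosed for the same 14 days, so the later times follow withdrawal of the drug. Strain, sex and tissue were the same in all groups, and the age of the animals and the makeup of the vehicle were not given in the sources used here. Whether the samples within a group are separate animals is not stated, so p-values here reflect only sample-to-sample spread, which may be technical, and the number of arrays limits the precision.

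In the heart, fibroblasts make most of the fibrillar collagen, a triple-helical protein that is folded with the help of the chaperone Serpinh1, hydroxylated by prolyl and lysyl hydroxylases, and secreted. Lysyl oxidases such as Lox then crosslink collagen and elastin into stable fibres, while laminins, nidogens, collagen IV and perlecan form the basement membrane around muscle cells and capillaries. TGF-beta signalling is a classical inducer of collagen and fibronectin genes, and the metalloproteinases and their inhibitors, the TIMPs, set the rate of matrix breakdown. These arrays measured RNA of whole tissue, in which fewer cells of a type and less RNA per cell cannot be told apart.

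The deposited MAS5 signals were not on a common scale (trimmed means of 82.9 to 246 per array), so values below are log2 signals after quantile normalization, a step that gives every array the same distribution, and a difference of 1 is a 2-fold change relative to the other probe sets. Levels of different probe sets cannot be compared with each other. Rank correlations between arrays of a group were 0.891 to 0.962. Some arrays stood apart. A high signal of the atrial light chain Myl7 marked 10 arrays, of which 7 belonged to 6 h (vehicle 1, 10 mg/kg 4, 80 mg/kg 2) and 3 to the 80 mg/kg group of 24 h. In 3 vehicle arrays, 1 from 6 h and 2 from 24 h, there was a high ratio of 3-prime to 5-prime actin signal, a sign of shortened RNA. Within groups, 0 of the 46 genes were higher and 1, Col8a1, was lower in the high-Myl7 arrays of all 4 groups with such arrays. The median difference was −0.01, but shifts of opposite direction in different groups cancel in it. For Col1a1 the difference was −0.75 in vehicle at 6 h, through 1 high-Myl7 array, and 0.32 at 80 mg/kg at 24 h. These values therefore do not show that the matrix genes were unaffected in such arrays. Neither set had an array at 336 h, and k-means clustering of all arrays into 3 sets on their first principal components placed every array of 336 h in 1 set. Defining markers of the labelled tissue were high in every array (the sum of 5 cardiomyocyte genes was 62100 to 67900 on the linear scale).

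The question put to these genes was whether their RNA differed between dosed and vehicle hearts at each time. Most calls lay at 336 h, 14 days after the last dose of 80 mg/kg, where Nid1, Lox and Fn1 were higher than in vehicle, by 1.58-, 1.66- and 1.81-fold. These 3 genes were called at an adjusted p under 0.05 (limma over all probe sets, Benjamini-Hochberg) out of 46, and 0 were called lower, where 0.398% of all genes were called. A limma F test of whether the effect of 80 mg/kg differed between times called none of the 3 (adjusted p of 0.552, 0.181 and 0.659 for Nid1, Lox and Fn1). The 336 h comparison gave positive differences for 42 of the 46 genes, and for 51.1% of all genes. The median of the 46 was 0.23 where the median of all genes was 0.00. At an unadjusted p under 0.05 stood 11 of the 46, all positive, against 7.37% of all genes (778 of 10557, 461 positive). On the deposited scale 42 of 46 were also positive (median 0.30), beside 63.2% of all genes (median 0.06). With arrays scaled by their medians 42 of 46 (median 0.29) and 62.6% of all genes (median 0.05) were positive. In each of these 41 of 46 lay above the median of all genes. The plot of differences at 336 h shows that the called genes are spread over different roles.

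**Figure D1:**
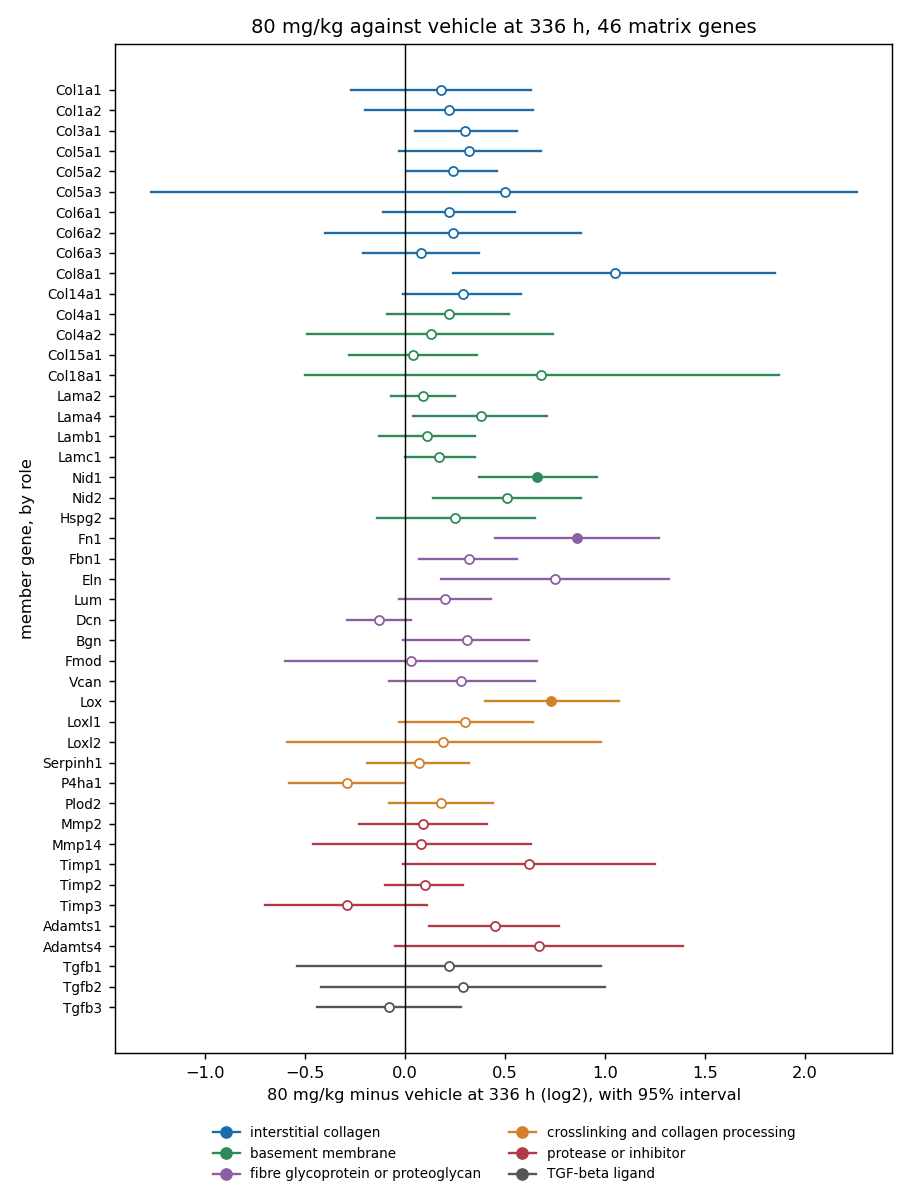
Difference between 80 mg/kg and vehicle at 336 h (log2, 5 arrays each) for 46 matrix genes, coloured by role, with the 95% interval from limma; filled points are called at an adjusted p under 0.05. All points for interstitial collagens and basement membrane genes lie right of 0, and the filled points are Nid1, Fn1 and Lox.

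Among the genes for crosslinking and collagen processing, 5 of 6 differences were positive at 336 h (median 0.19) and 1 was called. Lox, the lysyl oxidase that starts crosslink formation, read 6.11, 6.30, 6.35, 6.66 and 6.73 in the vehicle arrays and 6.88, 7.10, 7.23, 7.29 and 7.32 in the 80 mg/kg arrays. The lowest 80 mg/kg array lay above the highest vehicle array. The difference was 0.73 (SE 0.17, 95% interval 0.40 to 1.07, 1.66-fold, adjusted p = 0.0244). The 10 mg/kg arrays ran from 6.66 to 7.07 with a median of 6.89, overlapped both other groups, and stood 0.44 above vehicle (adjusted p = 1). A second, dimmer probe set for Lox differed by 0.61 (SE 0.29, adjusted p = 0.683).

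The lysyl oxidase signal of the 80 mg/kg groups hardly moved between times, with means of 7.01, 7.19, 7.27 and 7.16 at 6, 24, 168 and 336 h. The vehicle means were 7.29, 7.42, 7.05 and 6.43, so the vehicle group of 336 h was the lowest of all 12 groups. The differences from vehicle at the earlier times were −0.28, −0.23 and 0.22 at 80 mg/kg, each with an interval that included 0. A test of whether the effect of 80 mg/kg differed between the times gave an adjusted p of 0.181 for Lox. Of the other genes of this role, Loxl1, a relative that acts on elastin, differed by 0.30 and Plod2, a lysyl hydroxylase, by 0.18 at 336 h. P4ha1, a prolyl hydroxylase subunit, had a negative difference of −0.29 (95% interval −0.58 to 0.00). Its arrays read 7.83 to 8.22 in vehicle and 7.41 to 7.99 at 80 mg/kg, and the groups overlapped. Serpinh1, the collagen chaperone, differed by 0.07 at 336 h. At 24 h its vehicle arrays ran from 10.73 to 10.98, with a median of 10.86, and its 80 mg/kg arrays read 9.93, 10.30, 10.68, 10.69 and 10.87, a difference of −0.37 (SE 0.12, adjusted p = 0.265). The 2 lowest dosed arrays lay in the k-means set that held 1 of the 6 vehicle arrays, so dose and set cannot be fully told apart.

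Of the 8 fibre glycoproteins and proteoglycans, 7 had positive differences at 336 h (median 0.29) and 1 was called. Fn1 encodes fibronectin, the adhesive glycoprotein on which collagen fibres are laid down. It read 7.88, 8.16, 8.17, 8.20 and 8.31 in vehicle and 8.72, 8.94, 8.95, 9.16 and 9.24 at 80 mg/kg, without overlap. Fn1 differed by 0.86 (SE 0.21, 95% interval 0.45 to 1.27, 1.81-fold, adjusted p = 0.0415). The 10 mg/kg arrays, from 8.29 to 8.75 with a median of 8.53, overlapped both other groups and stood 0.38 above vehicle (adjusted p = 1). Unlike Lox, the vehicle level of Fn1 gave no call between times (means of 7.94, 8.23, 8.10 and 8.14, adjusted p = 0.746), and the 80 mg/kg group of 336 h, at 9.0, was the highest of the 12 groups. The earlier differences from vehicle were 0.42, 0.13 and 0.12, none of them called.

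Elastin, the rubber-like fibre protein, had a difference of 0.75 at 336 h (SE 0.28, adjusted p = 0.478). Its vehicle arrays read 7.72 to 7.99, and 4 of the 5 arrays at 80 mg/kg read 8.60 or more, while the fifth, at 7.96, lay within the vehicle range. Fbn1, which forms the microfibrils that elastin is deposited on, differed by 0.32 (adjusted p = 0.497), and a second probe set for it by 0.52 (adjusted p = 0.351). Biglycan (Bgn) differed by 0.31 and versican (Vcan) by 0.28. Decorin (Dcn), a small proteoglycan that binds collagen, was the exception, at −0.13 (95% interval −0.29 to 0.03): its vehicle arrays read 12.40 to 12.61 and its 80 mg/kg arrays 12.31 to 12.42. Lumican (Lum), another collagen-binding proteoglycan, stood out at 24 h instead. There it read 10.85 to 11.15 in vehicle, with a median of 11.10, and 11.16, 11.34, 11.60, 11.64 and 11.84 at 80 mg/kg, without overlap, a difference of 0.45 (SE 0.11) that missed the threshold (adjusted p = 0.0617). The k-means sets of arrays were split unevenly between these groups, so dose and set cannot be fully told apart. At 10 mg/kg and 24 h, Lum read 10.97 and 11.13 in the third set and 11.29, 11.39 and 11.51 in the others.

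All 11 basement membrane genes had positive differences at 336 h (median 0.22), of which 1 was called. Nid1 encodes nidogen-1, which links the laminin and collagen IV networks. It read 10.36, 10.37, 10.59, 10.64 and 10.81 in vehicle and 10.64, 11.27, 11.33, 11.40 and 11.44 at 80 mg/kg. The other dosed arrays lay above all vehicle arrays, and the lowest, replicate 3, fell inside their range. The difference was 0.66 (SE 0.15, 95% interval 0.37 to 0.96, 1.58-fold, adjusted p = 0.0193). At 10 mg/kg the arrays ran from 10.68 to 11.13 with a median of 10.83, 0.32 above vehicle (adjusted p = 1). A second, dimmer probe set for Nid1 differed by 0.36 (SE 0.22, adjusted p = 0.837).

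Nid1 also differed at 168 h, by 0.41 (SE 0.14), with arrays of 10.61 to 10.83 in vehicle and 10.86 to 11.31 at 80 mg/kg that did not overlap, but without a call (adjusted p = 0.601). At 6 and 24 h the differences were 0.18 and −0.03. Averaged over the 4 times the 80 mg/kg groups stood 0.31 above vehicle (SE 0.07, 1.24-fold, adjusted p = 0.0301). Without the 10 high-Myl7 arrays, that mean was 0.19 (adjusted p = 0.451). The call over the 4 times was also lost without any 1 of 10 of the 41 arrays (adjusted p from 0.0504 to 0.0801), namely vehicle replicate 6 of 6 h and 2 and 4 of 336 h, and 80 mg/kg replicates 1 and 2 of 6 h, 2 and 5 of 24 h, 1 of 168 h, and 1 and 4 of 336 h. The vehicle means of Nid1 were 11, 11.13, 10.69 and 10.55 at the 4 times, and the 80 mg/kg means 11.18, 11.10, 11.10 and 11.22. Nid2, the other nidogen, differed by 0.51 at 336 h (SE 0.18, adjusted p = 0.443) and by 0.47 at 6 h. The laminin chains Lama4, Lamc1, Lamb1 and Lama2 differed by 0.38, 0.17, 0.11 and 0.09 at 336 h, and the collagen IV chains Col4a1 and Col4a2 by 0.22 and 0.13. The leave-one-out fits bear on all 3 genes called at 336 h: the adjusted p passed 0.05 without any 1 of 6 arrays for Nid1 (up to 0.093), of 6 for Lox (up to 0.146) and of 9 for Fn1 (up to 0.182), of the 10 arrays compared. The differences themselves stayed between 0.61 and 0.81 for Nid1, 0.65 and 0.81 for Lox, and 0.79 and 0.93 for Fn1.

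The arrays whose loss ended the call were vehicle replicates 2 and 4 and 80 mg/kg replicates 1, 2, 4 and 5 for Nid1, vehicle replicates 2, 4 and 5 and 80 mg/kg replicates 1, 2 and 5 for Lox, and all 5 vehicle arrays and 80 mg/kg replicates 1, 2, 4 and 5 for Fn1. On the deposited scale the differences were 0.75, 0.76 and 0.92 for Nid1, Lox and Fn1, with an adjusted p of 1 for each.

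The 11 interstitial collagens all had positive differences at 336 h (median 0.24, and 0.32 on the deposited scale), and 0 of them were called by limma, with 3 at an unadjusted p under 0.05. Col3a1, a main fibrillar collagen of heart, read 11.89, 12.07, 12.21, 12.22 and 12.42 in vehicle and 12, 12.47, 12.48, 12.63 and 12.73 at 80 mg/kg. The groups overlapped through 1 dosed array, and the difference was 0.30 (SE 0.13, 95% interval 0.05 to 0.56, adjusted p = 0.586). Col1a1 and Col1a2, the chains of type I collagen, differed by 0.18 (95% interval −0.27 to 0.63) and 0.22 (−0.20 to 0.64). A second probe set for Col1a2 gave 0.44 (SE 0.12, adjusted p = 0.114) and 1 for Col1a1 gave 0.37, so the probe sets of these genes differ in size. Col5a2, a chain of the type V collagen that nucleates fibres, differed by 0.24, and its second probe set by 0.35. Col8a1, a short-chain collagen of vessels, had the widest difference of the 46 genes, 1.05 (SE 0.40, adjusted p = 0.486). Its arrays read 5.38 to 6.23 in vehicle and 6.23 to 7.5 at 80 mg/kg, which meet at their ends.

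The plot of every array shows the 3 genes called at 336 h and Adamts4, the gene called at 6 h, across doses and times.

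**Figure D2:**
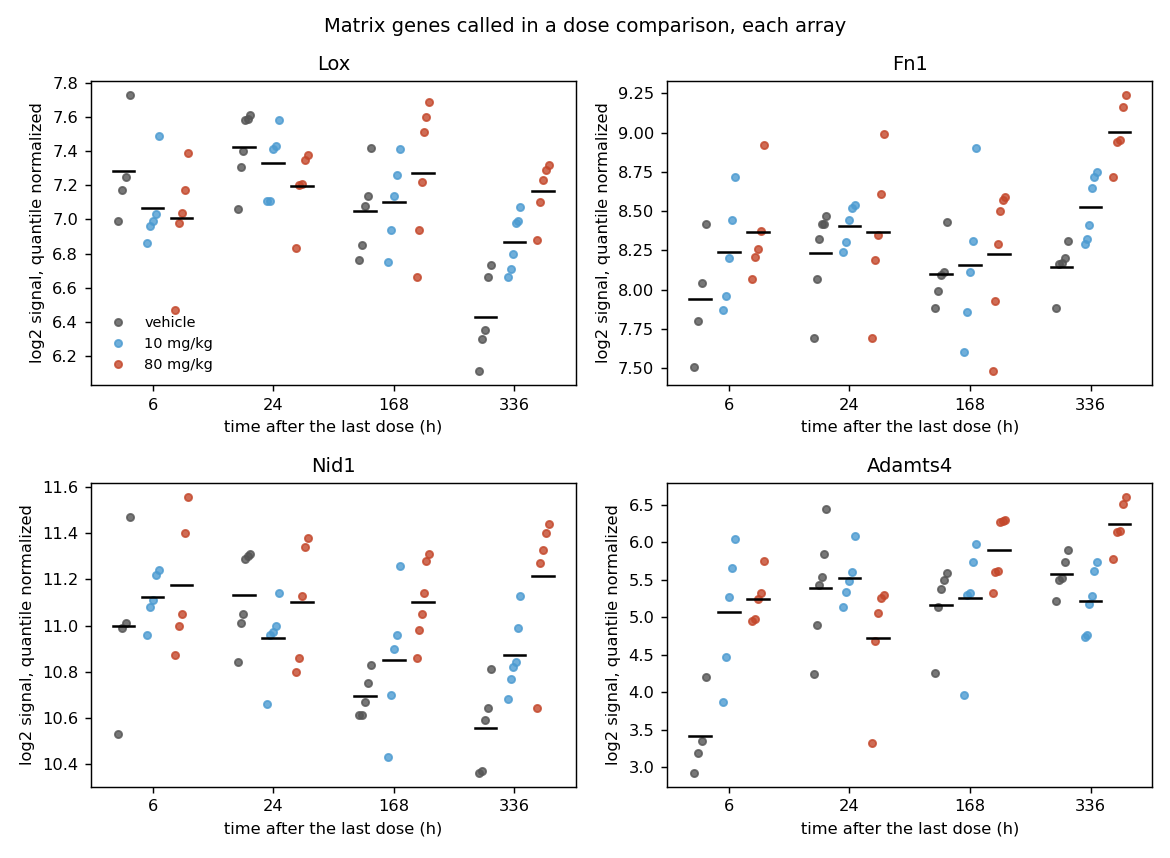
Log2 signal of each of the 62 arrays for Lox, Fn1, Nid1 and Adamts4, by time after the last dose, with 1 point per array and a bar at each group mean (vehicle grey, 10 mg/kg blue, 80 mg/kg red). At 336 h the Lox and Fn1 points of 80 mg/kg lie above all vehicle points, 1 Nid1 point of 80 mg/kg (10.64) falls among the vehicle points, and at 6 h the 4 vehicle points of Adamts4 (2.92 to 4.20) lie below all 5 points of 80 mg/kg (4.95 to 5.75).

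Of the 8 proteases and inhibitors 7 were tested, and 1 was called, at 6 h. Adamts4, an aggrecanase that cleaves proteoglycans such as versican, read 2.92, 3.19, 3.35 and 4.20 in the vehicle arrays of 6 h and 4.95, 4.98, 5.24, 5.32 and 5.75 at 80 mg/kg. The groups did not overlap, and the difference was 1.83 (SE 0.38, 95% interval 1.07 to 2.60, 3.56-fold, adjusted p = 0.0314). All vehicle arrays lay below the filter level of 5.03, where signals are dim and log2 differences are wide: with 16 added to each signal before the log2 step the difference was 1.0 (adjusted p = 0.159). The 10 mg/kg arrays read 3.87, 4.47, 5.27, 5.66 and 6.05, 1.65 above the same vehicle arrays (adjusted p = 0.156). Both doses share these 4 vehicle arrays. The vehicle group of 6 h was the lowest of the 12 groups for Adamts4: vehicle means were 3.42, 5.39, 5.17 and 5.57 at the 4 times and 80 mg/kg means 5.25, 4.72, 5.90 and 6.24. The later differences from vehicle were −0.67, 0.73 and 0.67, without a call.

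The 6 h call for Adamts4 was lost without any 1 of 6 of the 9 arrays compared (vehicle replicates 1 and 5, and 80 mg/kg replicates 1, 2, 4 and 6), with adjusted p from 0.0529 to 0.151 and differences from 1.67 to 2.09 over all 9. Without the high-Myl7 arrays it was 1.93 (adjusted p = 0.142), and within the 2 clusters that held both groups 1.85 (2 arrays against 3) and 1.88 (3 against 1). Among 10557 genes 0.0758% were called at 6 h. The other proteases and inhibitors gave no call at any time. At 336 h Adamts1, another secreted protease of that family, differed by 0.45 (SE 0.16, adjusted p = 0.432), Timp1, an inhibitor that is inducible in many tissues, by 0.62 (95% interval −0.01 to 1.25) and Timp3, which is bound to the matrix, by −0.29. Mmp2, the gelatinase made by fibroblasts, read 9.50 to 9.80 in vehicle and 9.45 to 9.84 at 80 mg/kg, a difference of 0.09 (95% interval −0.23 to 0.41). Timp2, which takes part in the activation of Mmp2, had group means between 10.23 and 10.47 throughout.

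Promoter sequence is shown for the called genes of the dose comparisons that the RefSeq promoter table (build GRCr8) holds, so that the start of each gene can be read beside its values. Of the 47 genes 33 had an entry. Lox and Fn1 had none. The 250 bases before the start of transcription are printed in lower case, with matches of the searched motifs in capitals: the GC box GGGCGG and the CCAAT box in Nid1 (chr17:93069036-93069285, plus strand, upstream of the first exon), and the SMAD box CAGACA in Adamts4 (chr13:86202761-86203010, plus strand, upstream of the first exon).
Nid1: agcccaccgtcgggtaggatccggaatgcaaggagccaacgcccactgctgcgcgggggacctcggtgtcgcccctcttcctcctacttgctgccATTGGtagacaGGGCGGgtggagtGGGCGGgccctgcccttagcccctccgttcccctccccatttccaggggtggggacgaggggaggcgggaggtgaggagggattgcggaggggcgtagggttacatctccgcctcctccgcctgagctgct
Adamts4: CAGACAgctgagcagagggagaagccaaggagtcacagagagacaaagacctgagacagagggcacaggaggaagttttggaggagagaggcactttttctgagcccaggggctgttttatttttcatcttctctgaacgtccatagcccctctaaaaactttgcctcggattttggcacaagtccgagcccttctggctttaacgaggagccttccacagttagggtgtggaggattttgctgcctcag

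The Nid1 window was 68% G or C, with GC boxes at 144 to 139 and 131 to 126 bases before the start and a CCAAT box, read on the minus strand, at 155 to 151. The Adamts4 window was 51.2% G or C, with the SMAD box at 250 to 245. The motifs named here were searched on both strands in 250 bases of 33469 promoters, without excluding overlaps between motifs. The shares of the 33 matrix genes count 1 promoter per gene. Those of all promoters count every entry and are not limited to genes of the array, so the shares are not of like units. A GC box stood in 19 of the 33 matrix promoters (57.6%) and in 30.5% of all promoters, a CCAAT box in 11 (33.3%) and 34%, and the SMAD box in 6 (18.2%) and 17.2%. The TATA box TATAAA stood in 3 (Col1a2, Lama4 and Adamts1) and in 12.9% of all, the AP-1 site TGANTCA in 1 (Col6a1) and in 6.34%. The PPAR direct repeat, AGGTCA repeated after 1 base, stood in 0 of the 33 and in 0.0508% of all. These matches describe the letters of this window only.

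The TGF-beta ligands gave no call in any comparison. Tgfb3 read 7.78 to 8.14 in vehicle and 7.63 to 8.25 at 80 mg/kg at 336 h, a difference of −0.08, with differences of 0.25 at 6 h and −0.37 at 24 h. Tgfb1, the ligand usually named in cardiac fibrosis, differed by 0.22 at 336 h (95% interval −0.54 to 0.98) and Tgfb2 by 0.29 (−0.42 to 1.0), so the intervals of both are wide. Of 16 receptors and signalling genes of the pathway, 13 were measured, and 0 were called in any dose comparison. In that list 8 of 13 differences were positive at 336 h (median 0.05), 1 at an unadjusted p under 0.05: Smad7, the inhibitory SMAD, at 0.44 (SE 0.19). Of 32 other matrix genes 30 were measured, 26 passed the filter on low signals and 0 were called in any dose comparison, with 17 of 26 positive differences at 336 h (median 0.09) and 3 at an unadjusted p under 0.05. The widest of these 3 was Col12a1, a fibre-associated collagen, at 0.66 (SE 0.22).

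At 6, 24 and 168 h fewer of these genes stood below an unadjusted p of 0.05 than at 336 h. Of all genes, 51.5%, 41% and 49.1% had positive differences at 80 mg/kg at these 3 times. At 6 h the differences from vehicle at 80 mg/kg were positive for 35 of 46 (median 0.12, all genes 0.01), with 2 at an unadjusted p under 0.05 where 6.88% of all genes were. On the deposited scale 44 of 46 were positive, as were 94.4% of all genes, and without the high-Myl7 arrays 22 of 46 were (median −0.01). At 24 h 15 of 46 were positive (median −0.10, all genes −0.04), 0 were called where 0.189% of all genes were, and 4 were at an unadjusted p under 0.05 (11.1% of all genes). On the deposited scale 5 of 46 and 10.6% of all genes were positive. Without the high-Myl7 arrays, which were 3 of the 5 arrays at 80 mg/kg, 13 of 46 were positive (median −0.25, all genes −0.05), and without the high-actin arrays 16 of 46 (median −0.04, all genes −0.02). At 168 h 38 of 46 were positive (median 0.15, all genes 0.00), 0 were called (0.0758% of all genes, the same share as at 6 h), and 5 were at an unadjusted p under 0.05 (5.51%). On the deposited scale all genes were shifted (median −0.21, 11.6% positive) and 20 of 46 differences were positive (median −0.06); 38 of 46 lay above the median of all genes on both scales. The map of differences shows these patterns gene by gene.

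**Figure D3:**
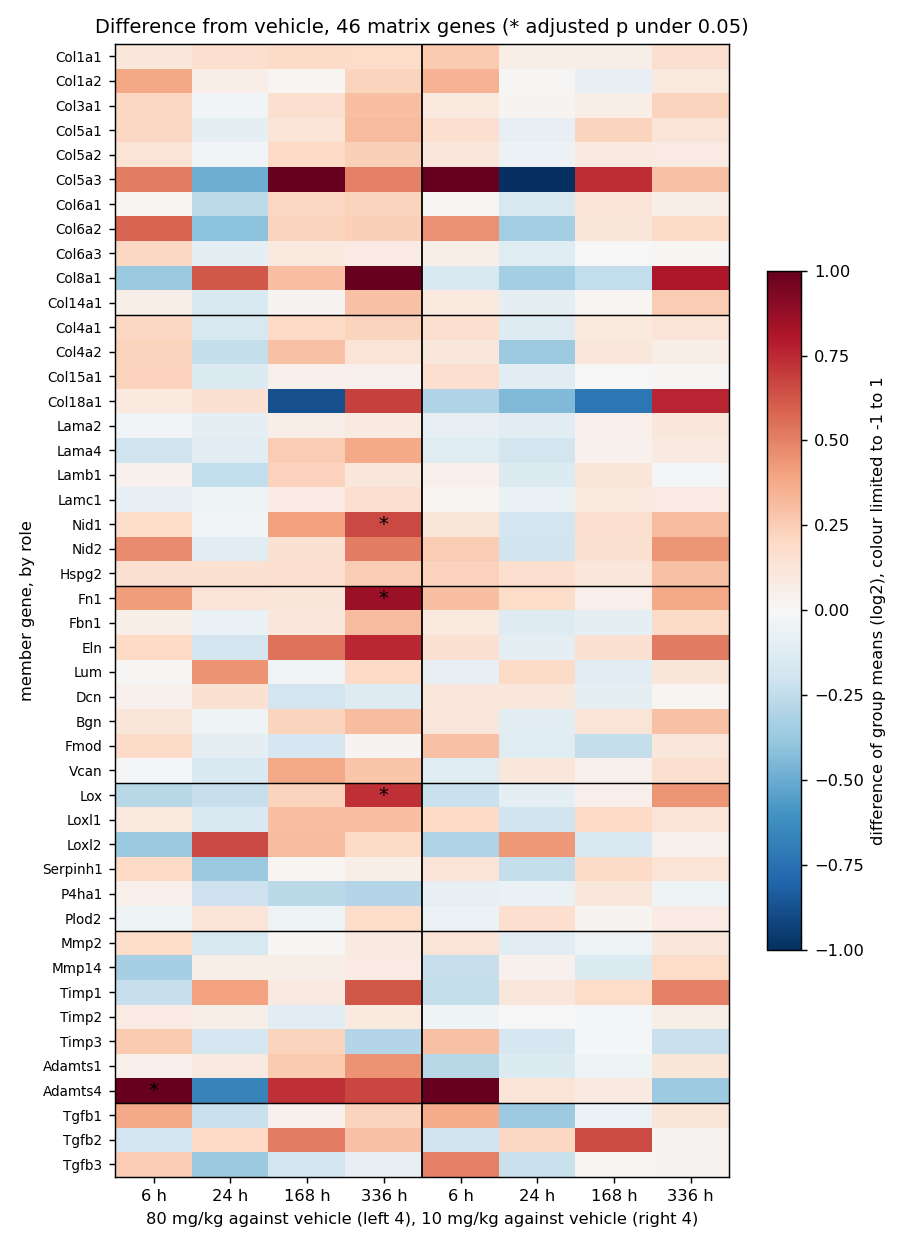
Difference from vehicle (log2, colour limited to −1 to 1) for 46 matrix genes ordered by role, at 6, 24, 168 and 336 h, for 80 mg/kg (left 4 columns) and 10 mg/kg (right 4 columns); a star marks an adjusted p under 0.05. The columns of 336 h are mostly red, the columns of 24 h mostly blue, and stars stand at Nid1, Fn1 and Lox (336 h) and at Adamts4 (6 h) for 80 mg/kg only.

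Besides Adamts4, which had the widest difference at 6 h (1.83), other genes stood at the ends of the range for 80 mg/kg at these times. At 6 h Col6a2, a chain of the beaded type VI collagen, differed by 0.58 (95% interval −0.10 to 1.27) and Col5a3 by 0.51 (−1.36 to 2.38), and the lowest were Col8a1 and Loxl2 at −0.37 each and Mmp14, a membrane-bound protease, at −0.33. At 24 h Loxl2 (0.66) and Col8a1 (0.62) led and Adamts4 (−0.67), Col5a3 (−0.49) and Col6a2 (−0.41) were lowest. At 168 h Col5a3 differed by 1.24 (−0.45 to 2.93), Adamts4 by 0.73 and elastin by 0.54 (0.00 to 1.09), while Col18a1, the source of endostatin, was lowest at −0.88 (−2.02 to 0.25) and P4ha1 and Tgfb3 stood at −0.27 and −0.19. The within-group SD of Col5a3 was 1.42, so its interval is wide at every time.

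The 10 mg/kg groups were compared with the same vehicle arrays, and 0 of 46 genes were called by limma at any time, as were 0% of all genes. At an unadjusted p under 0.05 stood 2, 0, 0 and 4 of the 46 at 6, 24, 168 and 336 h, against 6.03%, 5.76%, 3.72% and 3.83% of all genes. Positive differences were found for 48%, 43.4%, 50.6% and 51% of all genes at these times. At 336 h 42 of 46 differences were positive (median 0.12), led by Col8a1 at 0.81 (95% interval 0.04 to 1.58), Col18a1 at 0.76 and elastin at 0.52, and the lowest were Adamts4 at −0.36, Timp3 at −0.22 and P4ha1 at −0.04. At 6 h the count was 31 of 46 (median 0.11), with Col5a3 at 1.71 and Adamts4 at 1.65 first, then Tgfb3 at 0.50. Without the high-Myl7 arrays, which were 4 of the 5 dosed arrays of 6 h, 25 of 46 were positive (median 0.09, all genes −0.03). That fit left a single dosed array at 6 h. At 24 h the count was 15 of 46 (median −0.11), with Col5a3 lowest at −1.55 and Loxl2 highest at 0.43. At 168 h it was 30 of 46 (median 0.05), with Col5a3 (0.74) and Tgfb2 (0.65) highest and Col18a1 (−0.72) lowest, and on the deposited scale 2 of 46 (median −0.19), where 8.15% of all genes were positive (median −0.24); 30 of 46 lay above the median of all genes on both scales.

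Between the doses, 80 against 10 mg/kg, 0 of 46 genes were called at any time (0%, 0.0189%, 0.0474% and 0.133% of all genes at 6, 24, 168 and 336 h). At an unadjusted p under 0.05 were 1, 3, 1 and 5 of the 46, against 3.86%, 3.77%, 4.67% and 3.79% of all genes. The 5 of 336 h were Adamts4 at 1.03 (arrays of 4.73 to 5.73 at 10 mg/kg and 5.78 to 6.61 at 80 mg/kg, without overlap, adjusted p = 0.93), Fn1 at 0.48, Nid1 at 0.35 and Adamts1 at 0.33, and Dcn at −0.15. At 168 h the 1 gene was P4ha1, at −0.38 (95% interval −0.65 to −0.10).

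In the means over the 4 times, 1 of 46 genes, Nid1, was called for 80 mg/kg against vehicle (0.597% of all genes), and 10 were at an unadjusted p under 0.05, 9 positive and 1 negative (10.6% of all genes). The 9 included Fn1 at 0.38 (adjusted p = 0.0714), Adamts4 at 0.64 (0.0954), Adamts1 at 0.21, elastin at 0.33 and Lum at 0.16, and the negative was P4ha1 at −0.18. The mean for 10 mg/kg against vehicle gave 0 calls (0.0189% of all genes) and 3 genes at an unadjusted p under 0.05 (4.4%), which were Adamts4 at 0.38, Fn1 at 0.23 and Hspg2, the perlecan gene, at 0.20. The mean of 80 against 10 mg/kg gave 0 calls (0.256%) and 5 at an unadjusted p under 0.05 (6.57%), led by Adamts1 at 0.30 (SE 0.08, adjusted p = 0.158). Tests of whether a dose effect differed between the 4 times called 0 of 46 genes for 80 mg/kg (0.0379% of all genes) and 0 for 10 mg/kg (0%), with 8 (Lox, Adamts4, Nid1, Lum, Dcn, Serpinh1, Lamb1 and Fn1) and 2 (Adamts4 and Lox) at an unadjusted p under 0.05 (7.31% and 4.73%). The lowest adjusted p for 80 mg/kg among the called genes were those of Adamts4 (0.157) and Lox (0.181), and Nid1 and Fn1 had 0.552 and 0.659.

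The level in vehicle hearts alone differed between the 4 sampling times for 12 of the 46 genes (limma F test, adjusted p under 0.05), where 8.27% of all genes were called, and for 22 at an unadjusted p under 0.05 (26.3% of all genes). The 12 were 4 collagens (Col3a1, Col5a2, Col5a3 and Col6a3), 3 basement membrane genes (Lama2, Lamb1 and Nid1), Fbn1, Vcan, Lox, Adamts1 and Adamts4. Other probe sets gave a different list. Dimmer ones of Col1a2, Col1a1 and Timp2 were called (adjusted p of 9.54e-05, 0.0282 and 0.0492), though their brightest were not, and so was that of Col5a2 (0.00028). Dimmer probe sets of Lox, Fbn1, Nid1 and Col6a3 were not called (0.198, 0.185, 0.197 and 0.514), nor were those of Vcan (0.652 and 0.559). The lowest vehicle mean was that of 336 h for 9 of the 12, and the highest that of 24 h for 8. Lox had the widest span of these 9, from 7.42 at 24 h to 6.43 at 336 h (adjusted p = 0.000374). Its vehicle arrays of 24 h ran from 7.06 to 7.61 and those of 336 h from 6.11 to 6.73, without overlap.

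Lama2, the laminin chain of the muscle basement membrane, read 10.14, 10.17, 10.18 and 10.19 at 6 h and 9.57, 9.67, 9.70, 9.80 and 9.88 at 336 h in vehicle (adjusted p = 0.000602). Fbn1 read 9.22 to 9.79 at 24 h and 8.86 to 9.06 at 336 h (adjusted p = 0.00936), and Adamts1 8.03 to 8.54 at 6 h and 7.25 to 8.06 at 336 h (adjusted p = 0.0162). The dosed groups differed among these genes. For Lama2 the 80 mg/kg means were 10.14, 10.04, 10.00 and 9.82, near those of vehicle (10.17, 10.13, 9.93 and 9.72), and for Col6a3 they were 9.83, 9.76, 9.57 and 9.35 against 9.62, 9.85, 9.47 and 9.27. For Nid1, Lox and Fbn1 the 80 mg/kg means at 336 h (11.22, 7.16 and 9.29) stayed nearer to their own earlier means than the vehicle means did (10.55, 6.43 and 8.97). Adamts4 and Col5a3 ran the other way, with the lowest vehicle mean at 6 h (3.42 and 3.91). Sampling time was the only recorded difference between these vehicle groups, and day of collection, age at collection and array handling cannot be told apart from it.

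Lox, Lama2, Adamts4, Nid1 and Fbn1 kept the call when any 1 of the 20 vehicle arrays was left out. Col5a2, Col5a3, Vcan, Col3a1, Col6a3, Adamts1 and Lamb1 lost it without any 1 of 16, 15, 13, 7, 3, 2 and 1 of the arrays (adjusted p up to 0.111, 0.141, 0.161, 0.134, 0.0605, 0.0716 and 0.0577). The single arrays that mattered were replicate 1 of 24 h for Lamb1, replicates 5 and 6 of 6 h for Adamts1, and replicate 4 of 24 h and 2 and 6 of 336 h for Col6a3. Without vehicle replicate 5 of 336 h Col3a1 and Vcan had their highest adjusted p, as did Col5a2 without replicate 4 of 168 h and Col5a3 without replicate 6 of 6 h. With probe sets averaged per gene, Nid1, Col6a3 and Vcan lost the call (adjusted p of 0.464, 0.882 and 0.397), and with no filter Col3a1, Col5a2, Col5a3 and Vcan did (0.0718, 0.0955, 0.082 and 0.0886). Without the high-Myl7 arrays Col5a2, Col5a3 and Adamts1 lost the call (adjusted p of 0.0538, 0.16 and 0.0906). Without the 3 arrays with a high actin ratio 6 of the 12 calls were left (Lox, Lama2, Adamts4, Fbn1, Vcan and Adamts1), with the array clusters as a block 4 (Lama2, Col5a2, Adamts4 and Lox), and on the deposited scale 1, Adamts4.

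**Figure D4:**
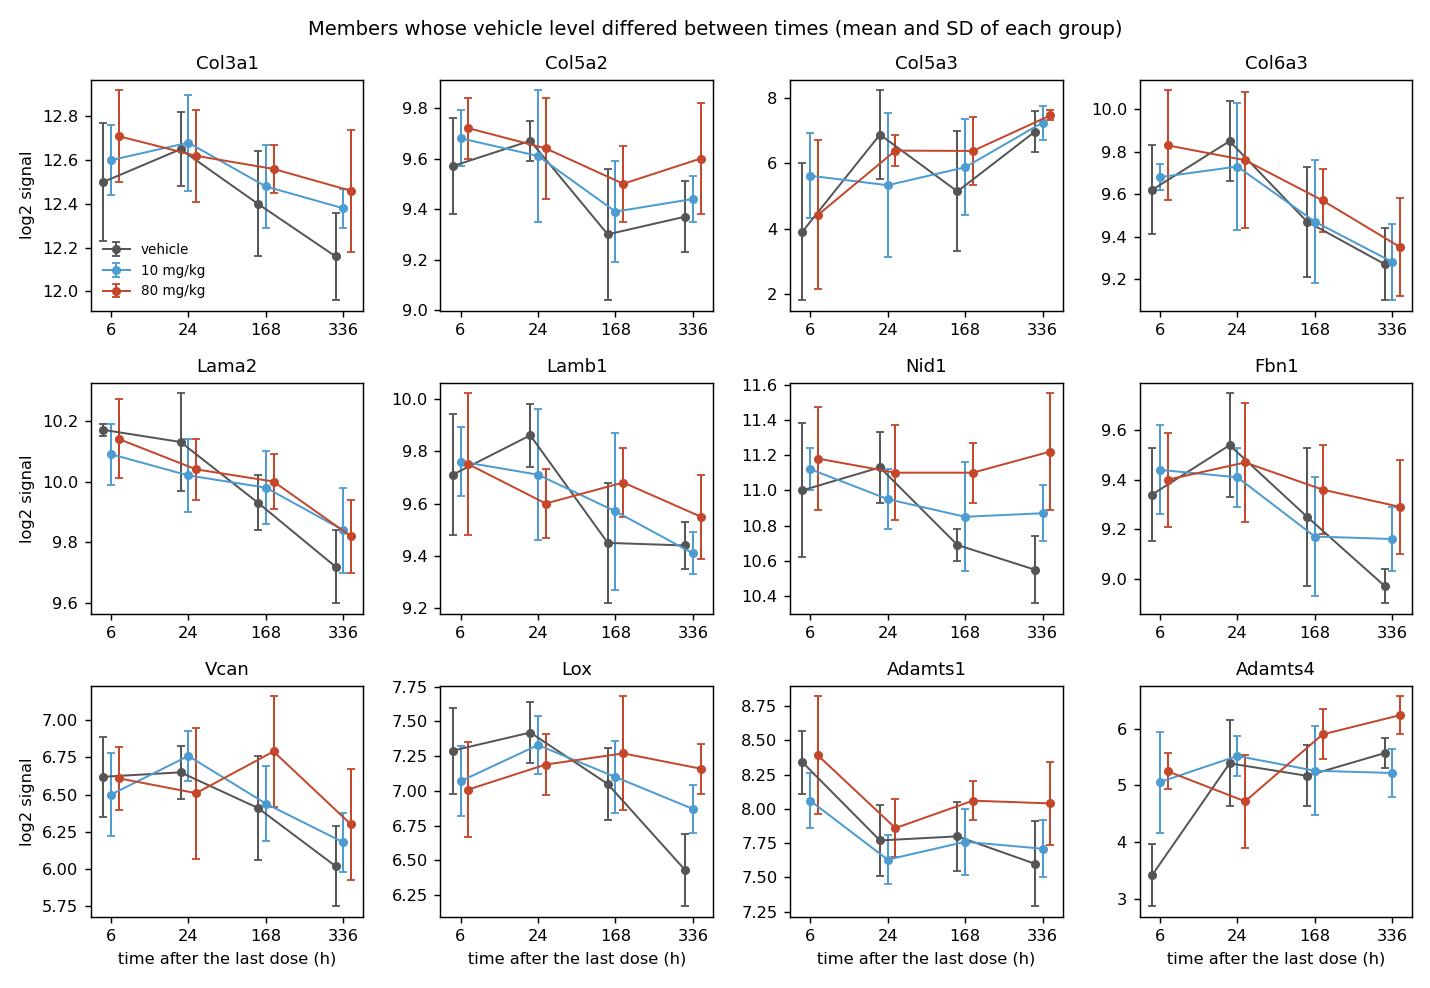
Group means of the 12 genes whose vehicle level differed between times, as log2 signal with SD bars (4 to 6 arrays per group), for vehicle (grey), 10 mg/kg (blue) and 80 mg/kg (red), against time after the last dose in h. The grey lines of Lox, Nid1, Fbn1 and Vcan fall to their lowest point at 336 h while the red lines of Lox and Nid1 stay level, and the grey line of Adamts4 starts at 3.42 at 6 h.

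Markers of other cell types were read beside the 336 h result. Of 6 fibroblast genes (Col1a1 among them, a member here) 4 had positive differences at 80 mg/kg (median 0.07) and 0 were called. The summed linear signal of the other 5 was 6290 to 6680 in vehicle and 5500 to 8230 at 80 mg/kg, and Vim differed by 0.27 while Pdgfra, Tcf21 and Dpt differed by −0.02, −0.04 and 0.03. Of 5 endothelial genes 3 were positive and 1, the VEGF receptor Kdr, was called (0.48, adjusted p = 0.00401), with summed signals of 2890 to 3080 in vehicle and 3050 to 3660 at 80 mg/kg. All 5 cardiomyocyte genes had negative differences (median −0.07), and their sums were 64600 to 66400 in vehicle and 62100 to 64900 at 80 mg/kg. Of 6 smooth muscle and pericyte genes 4 were positive (median 0.09, sums of 1800 to 2210 and 1670 to 2190), of 6 macrophage and leukocyte genes 5 (median 0.26, sums of 493 to 701 and 641 to 739), and 0 of either list were called. Of 5 genes of atrial muscle 4 were positive (median 0.36) and 0 were called, with sums of 680 to 1830 in vehicle and 1250 to 4550 at 80 mg/kg. Among 5 adipocyte genes Adipoq, Plin1 and Lep were below the filter level, and Fabp4, which fat and endothelial cells share, was called at 1.04. The sums of the adipocyte list were 3720 to 3960 in vehicle and 6320 to 9840 at 80 mg/kg. These sums mainly restate Fabp4, whose log2 signal averaged 12.3 over all arrays, against 5.86 for Cfd, the other gene that passed the filter. The part of these cell types in the matrix differences was not tested.

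Over all 62 arrays, after the group means were taken out, the genes of 1 role varied together to different degrees, given here as a description, since the arrays share scale and RNA quality. The median Pearson r between pairs was 0.63 for the interstitial collagens, 0.42 for the basement membrane genes, 0.24 for the fibre glycoproteins and proteoglycans, and 0.02 each for the crosslinking genes and for the proteases and inhibitors. Col3a1 went with Col1a2 (r = 0.82), Col1a1 (0.77), Col4a1 (0.74) and Col5a2 (0.69), less with Nid1 (0.52), Fn1 (0.49) and Lox (0.41), and not with Dcn (−0.12).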

How the data were processed

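RNA of rat cardiac muscle was measured on 62 arrays with 31099 probe sets, of which 57 controls were left out. Each deposited value is a linear-scale intensity, which the authors made with GCOS and MAS5 according to the submitters' processing notes, without versions. Log2 signals were quantile normalized, since the deposited signals had no common scale. Probe sets with a mean at or above the 40th percentile (5.03) were kept, 18625 in all. With limma 3.58.1 (R 4.3.3), all kept probe sets were fitted by 12 group means (50 residual degrees of freedom), with 18 comparisons (12 pairwise, 3 means over times, 3 F tests), two-sided p-values and Benjamini-Hochberg adjustment within each over all kept probe sets; shares of genes use the probe set with the highest mean of each of 10557 genes. Genes were named from the platform annotation where a probe set had 1 gene (20826 had, 436 had several, 9780 none). The members, the roles and the other lists were chosen with earlier results of these data known. Named in full are called members and the brightest of each role, and for each pairwise comparison the widest differences. Whether replicate numbers link samples is not stated, and the main fit did not pair by them. At the same time, 52 same-number pairs had a median correlation of 0.01 (from −0.26 to 0.34). For 268 pairs of other numbers it was −0.01 (from −0.42 to 0.36). The procedure was tested on simulated data. Figures were drawn with matplotlib 3.10.9 in Python 3.11.15.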

Additional observations from a re-analysis of the deposited data

Results flagged for a closer look

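In 204 combinations of a gene and a group of 4 to 6 arrays, 8 had 1 array set apart from the others by more than a Dixon test allows at the 95% level. Chance flags about 1 in 20 groups. In the 80 mg/kg group of 336 h, replicate 3 was lowest for Nid1 (10.64, next 11.27) and replicate 1 highest for Lama2 (10.02, next 9.79). In the 10 mg/kg group of 336 h, replicate 6 was highest for Col3a1 (12.55, next 12.39). At 6 h, Vcan was highest in 80 mg/kg replicate 2 (6.96, next 6.58), Serpinh1 lowest in 80 mg/kg replicate 6 (10.40, next 10.68) and Lox highest in 10 mg/kg replicate 2 (7.49, next 7.03). Col5a3 was lowest in vehicle replicate 2 at 24 h (4.15, next 7.05) and in 80 mg/kg replicate 4 at 168 h (4.37, next 6.31).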

How the results depend on the processing

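No called difference of these genes changed sign under an alternative. For 80 mg/kg at 6 h, the call (Adamts4) became 0 calls with no filter, with 16 added, with the replicate block, without the high-Myl7 or the high-actin arrays, and with only the compared groups in the fit; leaving out 1 array gave 0 to 1. At 24 h, 0 calls became 1 with median scaling (Serpinh1) and 1 with probe sets averaged per gene (Lum), and 0 to 1 without 1 array. At 336 h, 3 calls became 0 on the deposited scale, 1 with median scaling (Lox) and 1 with only the compared groups (Fn1), and 0 to 3 without 1 array. Lox also lost its 336 h call with probe sets averaged per gene (adjusted p = 0.128). Fn1 lost its call with no filter (0.0757) and without the high-actin arrays (0.0547). For the mean of the 4 times at 80 mg/kg, 1 call became 0 on the deposited scale, with median scaling, no filter, probe sets averaged, without the high-Myl7 arrays and with only the compared groups, 3 with array weights, and 0 to 2 without 1 array. For 80 against 10 mg/kg over the 4 times, 0 became 1 with the array clusters as a block (Adamts1), and 0 to 1 without 1 array; for 10 mg/kg against vehicle at 6 h it was 0 to 1 without 1 array (Adamts4). The test of the 80 mg/kg effect between times gave 1 call with array weights (Adamts4). The count of 12 vehicle calls became 1 on the deposited scale, 4 with clusters as a block, 6 without the high-actin arrays, 21 with array weights and 7 with only the vehicle groups, and 7 to 15 without 1 array. These counts can include genes outside the 12. With only the vehicle groups, Lox, Adamts4, Lama2, Nid1 and Col6a3 were the ones of the 12 that kept the call. The cause of these shifts was not tested. With the replicate block the 336 h count was 2 (Fn1 had an adjusted p of 0.0509) and the vehicle count 14. Precision is limited by 4 to 6 arrays per group and, for Adamts4 at 6 h, by signals below the filter level.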
